A study of Schizosaccharomyces pombe with 4 samples.

Results

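The fission yeast cell wall is built from glucans, and its synthases form 2 small gene families in *S. pombe*. The 10 genes described here are 4 catalytic subunits of β-glucan synthase (*bgs1*, *bgs2*, *bgs3* and *bgs4*), 4 α-glucan synthase homologues (*mok11*, *mok12*, *mok13* and *mok14*) and 2 genes of β(1,3)-glucanosyltransferases, which elongate and remodel β-glucan chains (*gas1* and *gas2*). They were taken by gene name, with no cut on their signal, from 5129 protein-coding genes and 9111 units of all kinds in the table. Earlier results of these data were known when the genes were chosen. Nascent RNA and total RNA were compared in wild-type cells by NET-seq, a method that reads the 3′ ends of RNA still bound to transcribing RNA polymerase II (RNAPII). The RNA of 2 IP libraries was purified with FLAG-tagged RNAPII, and that of 2 input libraries total RNA of the same cultures in the same protocol. All 4 libraries came from 1 strain, h- *rpb3-flag*, growing exponentially in rich YES medium with no treatment given in the labels. No sporulating culture was sampled, so every value below describes growing cells.

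In a growing cell, β(1,3)-glucan is laid down at the tips and in the septum, and a single α-glucan synthase, the product of *ags1* (also called *mok1*), makes the α-glucan of the wall. The spore wall is assembled during sporulation with other synthases. Bgs1 makes the linear glucan of the primary septum, Bgs4 the bulk of the branched β-glucan, and Bgs3 is a further synthase of growing cells. Gas1 is the main glucanosyltransferase of vegetative growth. Bgs2 is the synthase of the spore wall, and Mok12, Mok13 and Mok14 are known for roles in spore wall formation. *bgs1*, *bgs3*, *bgs4* and *gas1* are therefore called vegetative genes below, and *bgs2*, *mok12*, *mok13* and *mok14* sporulation genes. *mok11* and *gas2* were placed in neither group.

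The genes within a family resemble each other, so it was first asked whether uniquely mapped reads could tell them apart. Translated coding sequences of the Bgs genes shared between 53.4% (*bgs2* and *bgs3*) and 61.6% (*bgs2* and *bgs4*) of their aligned residues. Among the Mok genes the shares ran from 40.6% (*mok12* and *mok14*) to 50.7% (*mok11* and *mok13*), and *gas1* and *gas2* shared 43.4%. The best conserved ungapped stretch of 17 codons within the Bgs family is printed from the RefSeq genome (build ASM294v3, 5′ to 3′ on the coding strand). Capitals mark the 12 of 51 positions where the 4 genes are not all alike. The stretch was chosen for the most positions alike in all 4 genes, so a single pair may be closer elsewhere.
bgs1 (II:2352854-2352904, minus strand): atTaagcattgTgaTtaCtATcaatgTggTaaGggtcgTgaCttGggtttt
bgs2 (I:3055419-3055469, minus strand): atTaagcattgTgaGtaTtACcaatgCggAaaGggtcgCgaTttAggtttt
bgs3 (I:4887613-4887663, plus strand): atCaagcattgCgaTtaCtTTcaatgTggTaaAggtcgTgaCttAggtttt
bgs4 (III:2251211-2251261, minus strand): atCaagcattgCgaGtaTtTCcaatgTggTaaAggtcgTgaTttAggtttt
Even there *bgs3* and *bgs4*, the closest pair, differed at 4 positions. The spore gene *bgs2* differed from *bgs4* at 7, from *bgs1* at 8 and from *bgs3* at 11. In the Mok family the corresponding stretch had 15 differing positions of 51.
mok11 (I:4380056-4380106, plus strand): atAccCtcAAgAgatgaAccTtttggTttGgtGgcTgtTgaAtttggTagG
mok12 (II:1480471-1480521, minus strand): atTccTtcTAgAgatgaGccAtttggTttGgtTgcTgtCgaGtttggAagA
mok13 (II:3602159-3602209, plus strand): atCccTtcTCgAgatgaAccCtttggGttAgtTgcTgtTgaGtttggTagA
mok14 (III:841852-841902, plus strand): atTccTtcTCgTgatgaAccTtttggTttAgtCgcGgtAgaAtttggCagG
The closest Mok pair, *mok12* and *mok13*, differed at 8 positions. Over the whole of each gene, 0 windows of 50 nt, the read length, occurred anywhere else in the genome with up to 2 mismatches, the tolerance of the mapping. A full 50-nt read free of sequencing errors could therefore not have been placed on another family member. Reads shortened by adapter trimming were not covered by this check.

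Values are given in RPKM, normalized reads scaled to the length of a unit in kilobases and to the uniquely mapped reads of its library. The implied depth of the IP libraries was 7100000 and 7117477 reads, and that of the input libraries 9082385 and 9823089. A gene at the median had 369 and 338 reads (26.1 and 24.6 RPKM) in the IP libraries but 17 and 35 (0.925 and 1.80 RPKM) in the input libraries. Reads of tRNA units took 87.5% and 81.7% of the unit reads in input and 4.95% and 5.16% in IP, so the level of a gene in input depends on how much of the library is left. The second input library exceeded the first, with a median difference over protein-coding genes of 0.53 in log2(RPKM + 1), where the second IP library differed from the first by −0.08, and this difference runs through all input values below. The 7 growth markers ran from *cdc2* (the cell-cycle kinase) at 33.8 RPKM to *tdh1* (a glycolytic dehydrogenase) at 3660 RPKM in IP. Their level summed to 8531 and 9234 RPKM. Of 11 meiosis and sporulation markers 9 were above 1 RPKM in IP, beside 96.2% of protein-coding genes. The 11 ran from *spo4*, a kinase gene of meiosis, at 0.195 to *mei4*, which encodes the forkhead factor of middle meiosis, at 31.6. Their level summed to 124.0 and 111.7 RPKM, and *mei4* was near *cdc2*. In bulk cultures, fewer cells with a transcript and less transcript per cell cannot be told apart.

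The vegetative genes were transcribed at a high level, with *gas1* at the top. *gas1* (chromosome I, 4878579 to 4880798, minus strand; coordinates of genes and units are from the deposited table, build ASM294v2) reached 309 and 277 RPKM in IP and 18.2 and 30.1 in input. *bgs4* (chromosome III, 2248859 to 2256706, minus strand) had 137.0 and 157.8 RPKM in IP and 7.87 and 18.7 in input. Both lay above 93% of protein-coding genes in each IP library. *bgs1* (chromosome II, 2350922 to 2357405, minus strand) had 75.9 and 82.1 RPKM in IP and 2.24 and 5.24 in input. *bgs3* (chromosome I, 4882814 to 4889915, plus strand) had 72.1 and 85.3 RPKM in IP and 3.35 and 7.43 in input. The septum synthase and *bgs3* thus had ranges that overlapped in IP, while *bgs4* was above both, 1.87-fold above *bgs1* by the mean. *gas1* and *bgs3* are neighbours on opposite strands whose annotated starts lie 2015 nt apart, and their IP levels differed although they face away from the same intergenic stretch.

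The sporulation genes had nascent signal in growing cells too, below the median gene in IP. *mok12* (chromosome II, 1478007 to 1486116, minus strand) had 18.8 and 20.8 RPKM in IP but 0.312 and 0.753 in input, where 23 and 60 reads were counted. *mok13* (chromosome II, 3597571 to 3604899, plus strand) had 15.6 and 15.4 RPKM in IP and 0.240 and 0.639 in input, from 16 and 46 reads. *mok14* (chromosome III, 839962 to 844165, plus strand) had 15.8 and 17.7 RPKM in IP and 0.890 and 1.89 in input. The same-strand gene SPCC63.03, with a mean of 31.7 RPKM in IP, overlaps its start. How much of the *mok14* signal runs on from that gene was not tested. All 3 *mok* genes differed less between the IP libraries than between the input libraries, where replicate 2 was more than 2-fold higher. The spore wall β-glucan synthase *bgs2* (chromosome I, 3053214 to 3059282, minus strand) had 13.5 and 12.2 RPKM in IP and 0.381 and 0.721 in input. The 95% Poisson interval of its 21 reads in input replicate 1 ran from 0.236 to 0.582 RPKM, and such intervals cover counting error only. All 4 genes stood between the 22nd and the 42nd percentile of protein-coding genes in IP.

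The 2 genes in neither group fell on opposite sides. *gas2* (chromosome II, 2554009 to 2555531, plus strand) had 145.6 and 215 RPKM in IP and 10.8 and 29.1 in input, a level like that of *bgs4*. It was the gene with the widest gap between its IP libraries (180.3 ± 49.1 RPKM, SD, n = 2). *mok11* (chromosome I, 4375301 to 4382775, plus strand) had 12.9 and 12.4 RPKM in IP and 0.619 and 1.53 in input, with an IP range inside that of *bgs2*. By comparison *ags1* had 117.0 and 119.2 RPKM in IP and 4.97 and 11.5 in input. Its level in IP was 6.21-fold and 5.74-fold that of the highest of the 4 *mok* genes.

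**Figure D1:**
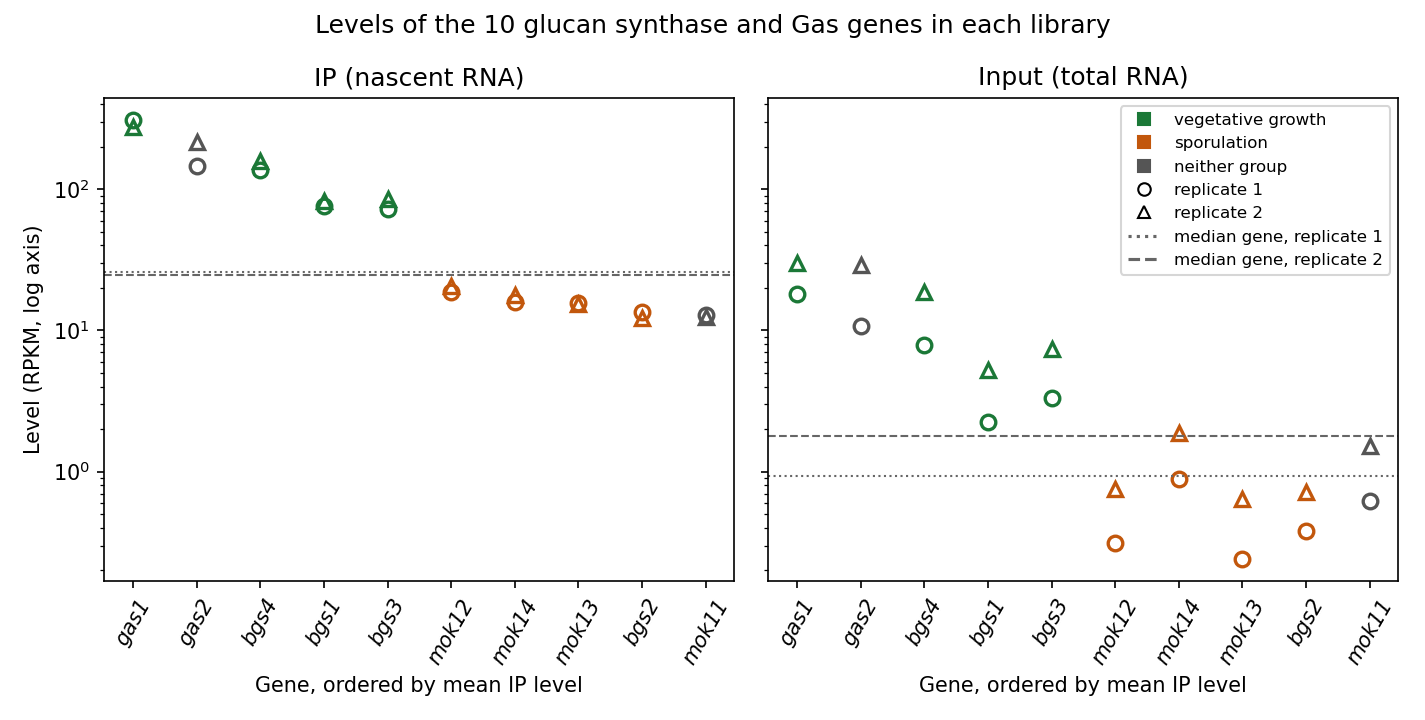
RPKM (log axis) of the 10 genes, with circles for replicate 1 and triangles for replicate 2, in IP (left) and input (right), and horizontal lines at the median protein-coding gene of each library. The vegetative genes lie above the sporulation genes in all 4 libraries, and input replicate 2 lies above input replicate 1 for every gene.

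The order in IP was *gas1*, *gas2*, *bgs4*, *bgs1*, *bgs3*, *mok12*, *mok14*, *mok13*, *bgs2* and *mok11*. The ranges over replicates overlapped for 3 neighbours in that order, *gas2* with *bgs4*, *bgs1* with *bgs3*, and *bgs2* with *mok11*. In input the order within each library was the same for the 5 highest genes except that *bgs3* stood above *bgs1* in both, and *mok14* and *mok11* came next. *bgs2* and *mok12* changed places between the input libraries, and *mok13* was last in both. All 10 genes had a mean above 1 RPKM in IP, the level that the study takes as transcribed, as did 96.2% of protein-coding genes, so that count says nothing particular to the family. In input the mean was above 1 RPKM for 7 of the 10 genes, with *bgs2*, *mok12* and *mok13* below it.

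The central contrast is between genes of growth and genes of sporulation in the same growing cells. In each of the 4 libraries the lowest vegetative gene was above the highest sporulation gene, by 3.82-fold and 3.95-fold in IP and by 2.52-fold and 2.78-fold in input. The median of the vegetative genes was 106.5 and 121.5 RPKM in IP, against 15.7 and 16.6 RPKM for the sporulation genes, folds of 6.77 and 7.33. In input these medians were 5.61 and 13.1 RPKM against 0.347 and 0.737 RPKM, folds of 16.2 and 17.7. The ratio of medians was thus larger in total RNA than in nascent RNA in both pairs, whereas the ratio of the lowest vegetative to the highest sporulation gene was smaller. Within the Bgs family the lowest vegetative synthase was 5.35-fold and 6.73-fold above *bgs2* in IP and 5.88-fold and 7.27-fold in input. That lowest gene was *bgs3* in IP replicate 1 and *bgs1* in the other libraries. For *bgs3* and *bgs4* the contrast with *bgs2* was larger in total RNA. Their ratios of IP to input RPKM were 21.5 and 11.5 for *bgs3* and 17.4 and 8.43 for *bgs4*. Those of *bgs2* were 35.3 and 16.9, and those of *bgs1* were close to them, 33.9 and 15.7. On the log2(RPKM + 1) scale the contrast of medians was 2.68 ± 0.08 in IP and 2.55 ± 0.48 in input (SD, n = 2), and the difference of both was 0.13 ± 0.40 (SD, n = 2 pairs), within its spread. That comparison turned on the constant added before the logarithm, because sporulation genes in input lie below or near 1 RPKM: with 0.1 in place of 1 the difference was −0.95 ± 0.11, and with 10 it was 1.37 ± 0.25 (SD, n = 2 pairs). The genes are not replicates and the 2 groups were set by their known roles, so no test was made of the contrast.

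How much nascent signal a gene had for its level of total RNA differed between members. The IP/input ratio of RPKM was 60.3 and 27.6 for *mok12* and 65.0 and 24.1 for *mok13*, against 25.7 and 12.2 for the median protein-coding gene. Both stood at or above the 88th percentile of 4813 genes in each pair. The ratio was 35.3 and 16.9 for *bgs2* and 33.9 and 15.7 for *bgs1*, above the median gene in both pairs. The other 6 genes lay below the median gene in both pairs, down to *gas2* with 13.5 and 7.39. *mok14* was the sporulation gene that differed from the rest, with ratios of 17.8 and 9.40, close to those of *bgs4* (17.4 and 8.43).

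**Figure D2:**
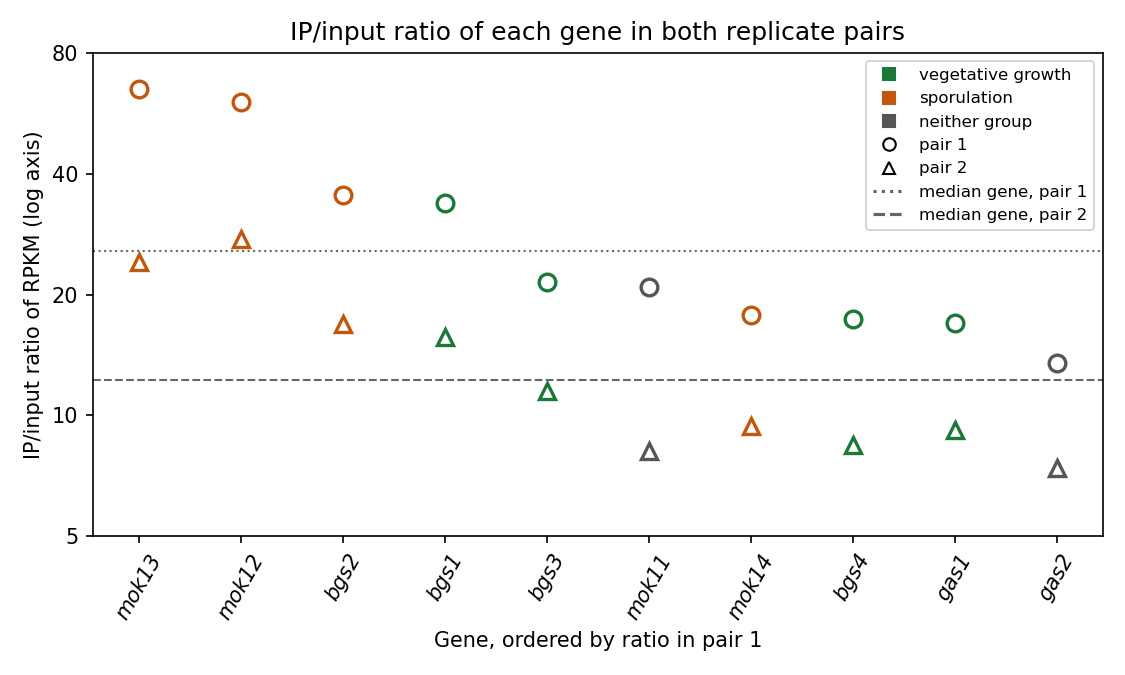
IP/input ratio of RPKM (log axis) of each gene in pair 1 (circles) and pair 2 (triangles), with the median protein-coding gene of each pair as a dotted and a dashed line. *mok13* and *mok12* have the highest ratios of the 10 genes in both pairs, and *gas2* the lowest.

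IP and input were then compared across the 8912 units that had any read. Under the authors' normalization, limma on log2(RPKM + 1) called all 10 genes higher in IP at a Benjamini-Hochberg adjusted p of 0.05. This tells little about them, since 92.8% of all units were called higher and 0.92% lower. The median protein-coding gene changed by 3.28 on the log2 scale. The changes of the 10 genes ran from 2.76 (SE 0.28, limma adjusted p = 0.00123) for *mok11* to 4.15 (SE 0.42, limma adjusted p = 0.00121) for *bgs1*. *bgs4* and *gas2* were no longer called when either IP library was left out, with limma adjusted p of 0.0577 and 0.0644 for *bgs4* and 0.0733 and 0.0990 for *gas2*.

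Relative to the composition of the libraries, edgeR's quasi-likelihood test with TMM factors on the recovered reads separated the members. It called *mok12*, *mok13* and *bgs2* higher and *gas2* and *mok11* lower, 3 and 2 of 10 genes, while 14.7% of all units were called higher and also 14.7% lower. *mok12* was higher by 1.20 on the log2 scale (edgeR adjusted p = 0.000154) and *mok13* by 1.12 (edgeR adjusted p = 0.000331), against 0.07 for the median protein-coding gene. They were higher in both pairs, and both were also called when any 1 of the 4 libraries was left out, with changes of 1.05 to 1.45 for *mok12* and 0.95 to 1.47 for *mok13*. Such a fit has 1 library in a group, which is assumed to vary like the 2 of the other. The other calls depended on single libraries. *bgs2* was higher by 0.51 (edgeR adjusted p = 0.0387) and was not called without any 1 of the 4 libraries, where the adjusted p ran from 0.0928 to 0.217. *gas2* was lower by −0.78 (edgeR adjusted p = 0.0145), and was not called without IP replicate 1 (adjusted p = 0.219) or input replicate 2 (adjusted p = 0.186). *mok11* was lower by −0.45 (edgeR adjusted p = 0.0490), and kept that call only without input replicate 1. None of the 4 vegetative genes was called, from −0.50 for *bgs4* (edgeR adjusted p = 0.0691) to 0.41 for *bgs1* (edgeR adjusted p = 0.0857). The difference in change between the vegetative and the sporulation genes was not tested.

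Since input and IP libraries of the same number came from the same culture, the edgeR fit was repeated with the replicate pair as a block. It then called 4 genes higher (*bgs1*, *bgs2*, *mok12* and *mok13*) and 4 lower (*bgs4*, *gas1*, *gas2* and *mok11*), with 16.3% of all units higher and 15.7% lower. Other scalings gave other sets. DESeq2 called *mok12* and *mok13* higher and *gas1* and *gas2* lower, with 10.6% of tested units higher and 16.6% lower. When libraries were centred on the median of protein-coding genes, limma called *bgs1* higher and *mok11* and *mok14* lower, with 9.11% and 54.6% of units. Quantile normalization gave *bgs1* and *gas1* as higher and no gene as lower, with 10.3% and 7.89% of units. The direction of *bgs1* was the same under all of these scalings, whereas those of *bgs2*, *bgs3*, *bgs4*, *gas1*, *gas2*, *mok11* and *mok14* turned with the scaling. *mok12* and *mok13* were higher under each scaling, but called under the authors' normalization, edgeR and DESeq2 only.

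**Figure D3:**
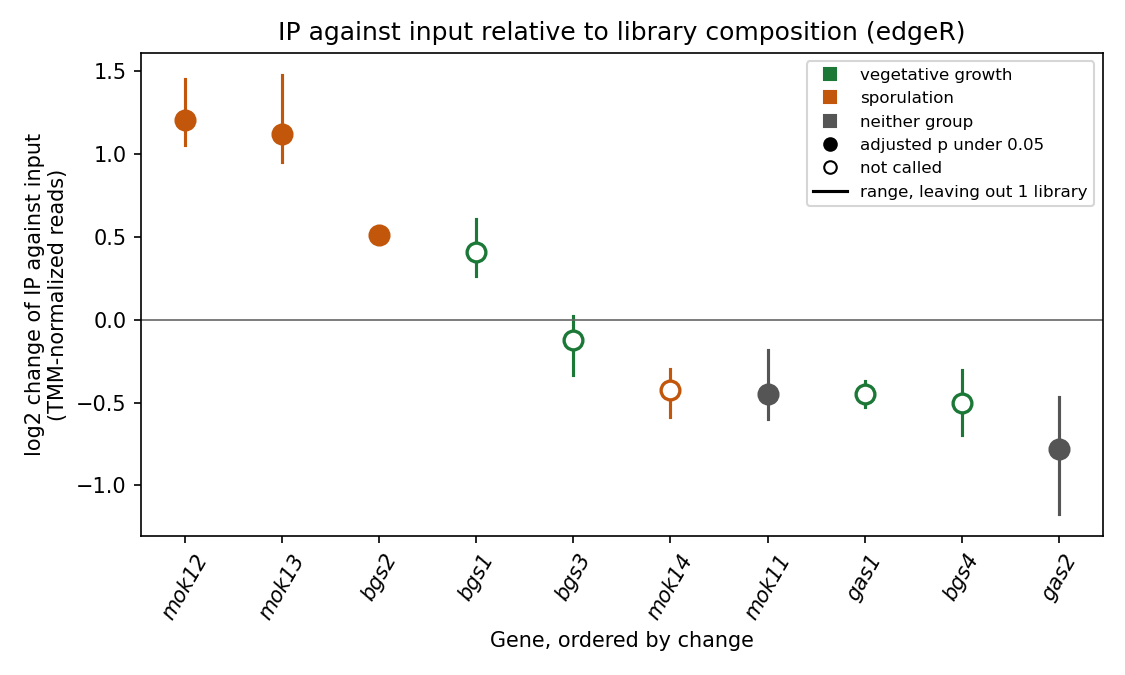
log2 change of IP against input for the 10 genes by edgeR with TMM, filled where the adjusted p was under 0.05, with bars for the range of the 4 fits that each leave out 1 library. *mok12* and *mok13* stay near or above 1 in every fit, and the bar of *bgs3* crosses 0.

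A closer look at *mok13* showed that its annotated first coding segment carried almost no nascent signal. The gene has 2 coding segments, of 357 nt (chromosome II, 3597571 to 3597927) and 6720 nt (3597968 to 3604687). The first had 1 and 1 reads in the IP libraries, with a 95% Poisson interval of 0.0253 to 5.57 reads each. At the density of the second segment, which had 808 and 797 reads, 42.9 and 42.3 reads would fall in it. The ratio of the densities was 0.0233 and 0.0236. Among 194 genes with a first coding segment of at least 300 nt and at least 50 reads in the rest, this was the lowest ratio in both libraries, and the median gene had 1.502 and 1.356. In input the first segment had 0 and 2 reads and the second 16 and 44. The 2 segments are joined by an annotated intron of 40 nt, printed here in lower case with 20 nt of each segment in capitals, since it lies between both. The table has 1 count per segment, so where in the second segment the signal begins was not measured.
mok13 intron (ASM294v3, II:3597908-3597987, plus strand): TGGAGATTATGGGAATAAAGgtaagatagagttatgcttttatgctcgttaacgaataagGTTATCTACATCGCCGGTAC
The intron starts with gt and ends with ag. Coding coordinates of *mok13* were identical in the table and in RefSeq. Of the 119 residues that the first segment encodes, 117 aligned to Ags1 and 52.1% of these were identical, close to the 52.0% over the whole protein. Whether the first segment belongs to the transcript of growing cells was not tested. This segment was covered on the other strand by *mok13-antisense-1* (660 nt), which had 3 and 2 reads in IP.

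**Figure D4:**
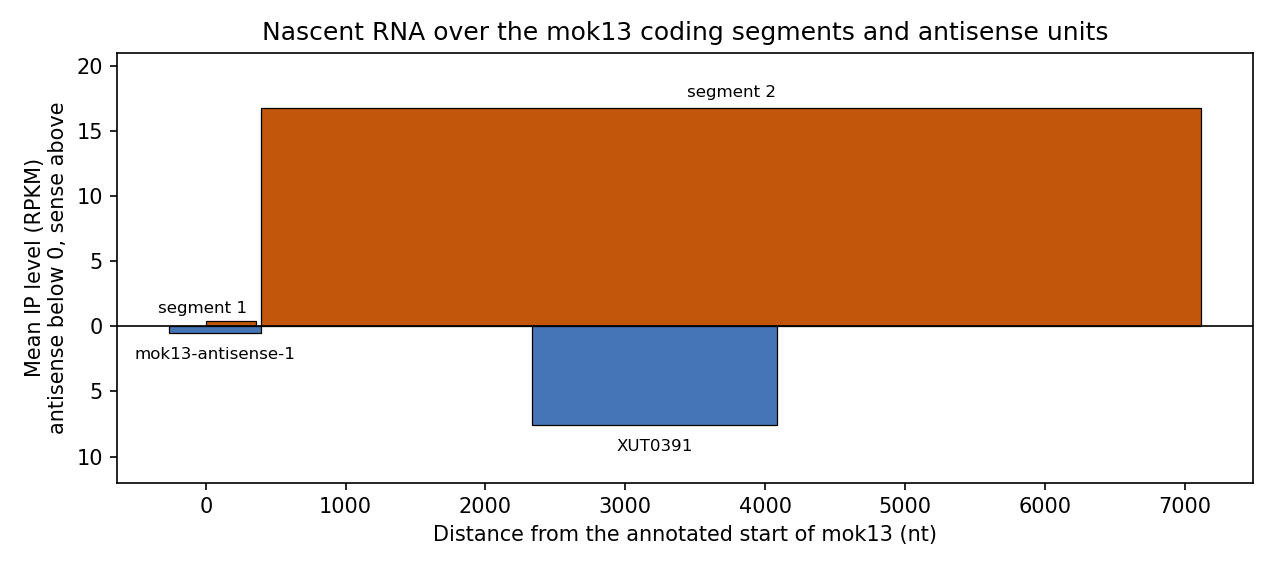
Mean IP level (RPKM) of the 2 coding segments of *mok13* above the line and of 2 antisense units below it, against the distance in nt from the annotated start, with the width of a bar showing the length of the unit. The first segment and *mok13-antisense-1* are near 0, whereas the second segment is near 17 RPKM and XUT0391 near 7.6 RPKM.

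The study asks how antisense transcription relates to sense transcription, so annotated units on the opposite strand were examined. A noncoding unit of at least 50 nt overlap with a mean above 1 RPKM in IP lay antisense to 4 of the 10 genes (*bgs2*, *bgs3*, *gas2* and *mok13*), beside 30.9% of protein-coding genes. That was 1 of 4 vegetative and 2 of 4 sporulation genes. Coding genes on the opposite strand were left out of this count. With them *bgs1*, a vegetative gene, would be added. The coding gene SPBC19G7.04 overlaps its 3′ end by 61 nt, with 4.59 and 4.96 RPKM in IP. Antisense signal outside annotated noncoding units was not counted either. The paper, which measured signal opposite each gene, reports antisense transcription at a majority of protein-coding genes. At *bgs2* the antisense unit had a higher density than the gene as a whole. *bgs2-antisense-1* (chromosome I, 3057965 to 3059473, plus strand) had 15.3 and 14.8 RPKM in IP, and it spans the annotated start of *bgs2* and 1318 nt of the gene. The sense/antisense ratio was 0.879 and 0.824, below 1 in both libraries. Here and below, sense levels are averages over the whole gene, and sense signal within an overlap was not measured. At *bgs2* the overlap is 21.7% of the gene, which had 580 and 527 reads in IP against 164 and 159 for the unit. In input the same unit had 3 and 7 reads. XUT1462, a transcript that accumulates without the exoribonuclease Exo2, has almost the same ends and the same reads, and the counts cannot be told apart. At *mok13*, XUT0391 lies wholly inside the gene (1754 nt) with 7.63 and 7.53 RPKM in IP, and the sense signal was 2.05-fold and 2.04-fold above it.

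The antisense units of *gas2* and *bgs3* were small beside the sense signal. *gas2* overlaps novelncTU_408 (7.33 and 5.68 RPKM) and novelncTU_409 (3.07 and 6.88 RPKM), and also the coding gene *tri1* on the opposite strand, which covers 89.0% of *gas2*. *tri1* had 5.78 and 5.76 RPKM in IP, so the sense signal of *gas2* was 25.2-fold and 37.3-fold higher. At *bgs3*, SPNCRNA.1034 overlaps the 3′ end by 118 nt with 1.73 and 2.76 RPKM, and an overlap of at least 200 nt would leave it out, giving 3 of 10 genes. At *gas1*, novelncTU_106 lies inside the gene with 0 and 2 reads in IP. Units on the same strand touched 2 genes: *mok14* shares 51 nt with SPCC63.03 (33.6 and 29.9 RPKM), and *mok11* shares 4 nt with *aah2-antisense-1* (20.9 and 23.2 RPKM, above *mok11* itself). Reads in these short stretches can be counted for either unit. In RefSeq *mok11* has a leader of 1136 nt, and *aah2-antisense-1* (916 nt) lies inside it. The reads of that unit (136 and 151 in IP) were not added to *mok11*. Signal of SPCC63.03 running past its 3′ end into *mok14* was not told apart from that of *mok14*.

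Long leaders marked 4 of the 10 genes in the deposited annotation, and *mok11* too in RefSeq. *bgs1*, *bgs3*, *bgs4* and *mok12* have annotated leaders, the transcribed part before the coding sequence, of 1162, 1184, 1560 and 954 nt, and that of *ags1* is 1076 nt. The median leader over 4688 genes was 175 nt, and 6.02% of these genes had one over 900 nt. *gas1* has a leader of 345 nt, *mok11* of 198 nt and *gas2* of 38 nt. The table gives none for *bgs2*, *mok13* and *mok14*. In RefSeq the lengths differ for 8 of the 10 genes, by the widest margin for *mok11* (1136 nt), *mok13* (135 nt), *bgs3* (1044 nt) and *gas2* (108 nt), while *bgs2* and *mok14* have no leader there either.

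Nascent signal outside the coding part was high in the genes with long leaders. Leader and trailer were counted as 1, so the leader alone was not measured. Leaders here are those of the deposited annotation, and *mok11* was not recounted with its longer RefSeq leader. In genes with 1 coding segment, reads outside the coding part were compared with reads inside it, per nt. The ratio was 1.70 and 1.78 in IP for *mok12*, 1.09 and 1.08 for *bgs4*, 1.04 and 1.06 for *bgs3*, and 0.958 and 0.925 for *bgs1*. For the median of 2204 and 2205 genes it was 0.586 and 0.589, and the upper quartile was 0.782 and 0.777, so these 4 genes lay above the upper quartile in both libraries. *gas1* (0.419 and 0.440) lay just below the lower quartile of 0.430 and 0.447. *bgs2*, whose noncoding part is a trailer of 384 nt, had 0.529 and 0.584. In input the ratio was 0.633 and 0.673 for *bgs1*, 0.588 and 0.590 for *bgs3* and 0.666 and 0.553 for *bgs4*, against medians of 0.472 and 0.466 and upper quartiles of 0.680 and 0.654. That of *mok12* was 0.640 and 1.19, from 2 and 9 noncoding reads. *mok12* counted over its coding part alone still had 17.3 and 18.9 RPKM in IP, and the edgeR change over coding rows was 1.12 (edgeR adjusted p = 0.000219).

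**Figure D5:**
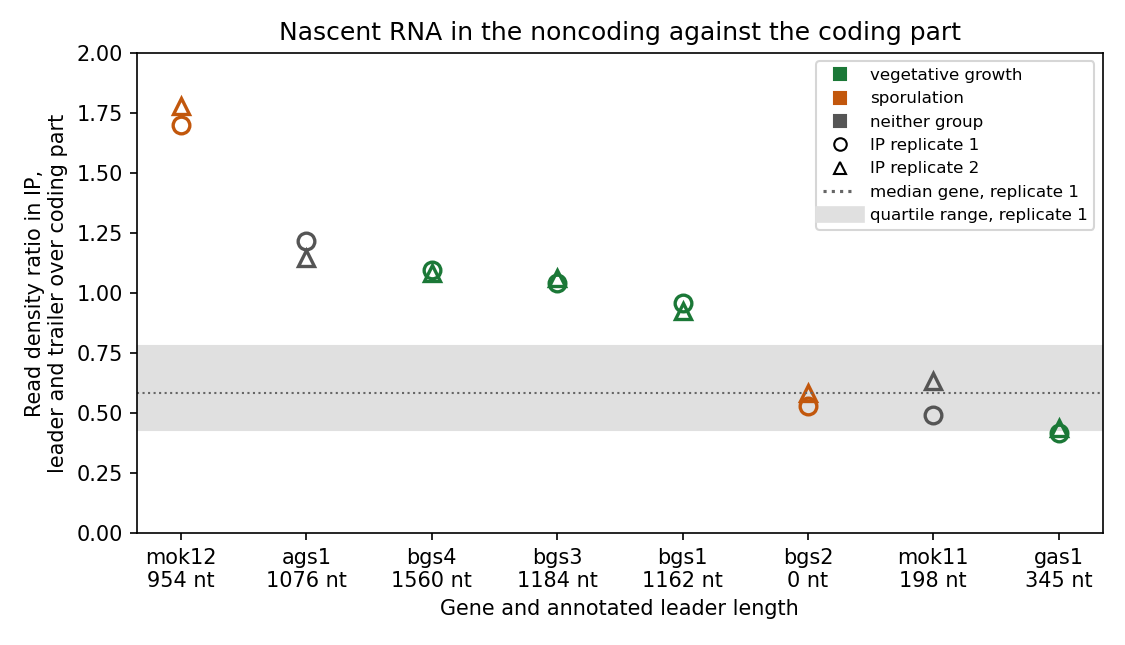
Ratio of read density in the leader and trailer to that in the coding part in both IP libraries, for the genes with 1 coding segment and a noncoding part of at least 200 nt, and for *ags1*. *mok12*, *ags1*, *bgs4*, *bgs3* and *bgs1* lie above the shaded quartile range of all genes. *bgs2* and *mok11* lie within it, and *gas1* lies at its lower edge. Leaders are those of the deposited annotation, and that of *mok11* is longer in RefSeq (1136 nt).

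Mei4 and related forkhead factors, which drive genes of middle meiosis, bind sites with the core GTAAACA, and GTAAATA is a variant of it. Both were searched on both strands from 250 nt before to 50 nt after each RefSeq gene start. RefSeq gives no leader for *bgs2* and *mok14*, so their windows were set by the start of the coding sequence. A transcription start further upstream would not be covered, so a lack of matches there tells little. The letters occurred at 3 of the 10 genes, *bgs3*, *gas1* and *mok13*, beside 29.3% of 5112 promoters with either one (GTAAACA in 16.5%, GTAAATA in 16.2%). The matches are printed with the flanking letters on the gene's strand and the match in capitals, since *mok13* was the only sporulation gene among them, and *gas1* has 3 matches. All lie on the opposite strand, so that GTAAACA reads TGTTTAC and GTAAATA reads TATTTAC.
mok13 (ASM294v3, II:3597374-3597400, plus strand): ttcgtttgttTGTTTACattccaaaaa
gas1 (ASM294v3, I:4880873-4880899, minus strand): ttaccagcttTGTTTACgttttggttc
gas1 (ASM294v3, I:4880837-4880863, minus strand): agactttgttTATTTACatctaatgac
gas1 (ASM294v3, I:4880794-4880820, minus strand): tgtcatttccTATTTACcttgacaacc
bgs3 (ASM294v3, I:4882704-4882723, plus strand): gtgTGTTTACcgttgtgttc
The match of *mok13* begins 52 nt before its RefSeq start. A match describes letters in this window and is not evidence of binding.

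Other genes of the wall pathway were counted in the same fits. Of 5068 protein-coding genes tested, limma called 4983 higher, and edgeR called 884 higher and 985 lower. Counts by limma near the full list therefore tell little about it. The 10 glucan-modifying enzymes ranged in IP from *exg2*, an exoglucanase gene, at 10.4 RPKM to *psu1*, which encodes a wall-remodelling protein, at 624 RPKM. limma called 10 of them higher, and edgeR 4 higher (*gas5*, *exg1*, *agn1* and *bgl2*) and 1 lower, *eng1* by −0.69. The 14 regulators of glucan synthesis, with the GTPase genes *rho1* at the top (151.9 RPKM) and *rho5* at the bottom (2.85 RPKM), were all called higher by limma, and edgeR called 7 higher and 0 lower. Of the 4 cell integrity MAP kinase pathway genes, from *mkh1* (18.6 RPKM) to *pmk1* (39.5 RPKM), limma called 4 higher, and edgeR called 3 higher (*mkh1*, *pmk1* and *pmp1*) and 1 lower, the kinase kinase gene *pek1* by −0.71. The medians of the edgeR change were 0.51, 0.61 and 0.78, against −0.28 for the 10 synthase and Gas genes and 0.07 for all protein-coding genes.

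Lists of spore and meiosis genes were counted in the same way. Their counts also stand beside 4983 of 5068 protein-coding genes higher with limma, and 884 higher and 985 lower with edgeR. The 6 spore wall genes ran in IP from *meu10* (2.95 RPKM) to *gas4*, the glucanosyltransferase gene of the spore wall, at 28.6 RPKM. limma called 6 of them higher, and edgeR 0 higher and 2 lower, *gas4* (−1.42) and *isp3* (−1.91). *isp3* had only 5 and 9 reads in input. Of the 11 meiosis and sporulation markers, limma called 10 higher and left out *spo4* (limma adjusted p = 0.278). edgeR called 5 higher (*mei4*, *rec8*, *rec10*, *spo3* and *spo5*) and 0 lower, with a median change of 1.70. These rest on few input reads: 3 and 5 for *mei4*, 1 and 6 for *rec8*, 4 and 7 for *rec10*, and 1 and 2 for *spo5*. *spo3* had 24 and 46. The size of these changes was therefore poorly measured. For the 7 growth markers limma called 7 higher, and edgeR 1 higher (*cdc2*) and 6 lower, with a median of −1.82.

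Genes whose levels over the 4 libraries were close to the mean profile of the vegetative genes included *ste13* and SPCC594.02c, at Euclidean distances of 0.179 and 0.204 on the log2(RPKM + 1) scale. Those most like the sporulation genes were *pso2*, *rdp1* and *prp4*, at 0.0591, 0.109 and 0.113. *pso2* had 15.6 and 15.96 RPKM in IP and 0.390 and 0.917 in input, values within the range of the 4 sporulation genes in every library.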

How the data were processed

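The sample labels gave the group and the replicate number. The authors sequenced 50 nt, trimmed the 5′ adapter and mapped reads uniquely with Bowtie to build ASM294v2, allowing 2 mismatches. They counted reads per annotated feature and strand, and divided by a factor of the uniquely mapped total of each library. What they deposited is a signal, a normalized read count for each feature, with the same values per nt and as a sum of both replicates, which were not used. How reads touching several features were counted is not stated. In every library 100% of values were whole multiples, within 0.01 of a read, of the lowest nonzero value, which allowed whole reads to be recovered. RPKM rests on 1 common factor, set so that IP replicate 1 has the smallest library total given in the methods. From 19343 rows, 10204 CDS rows were used only for coding parts and 28 repeated pseudogenes were dropped.

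The main test was limma 3.58.1 with a trend on log2(RPKM + 1), on units that had a read in 1 or more libraries, with Benjamini-Hochberg adjustment at 0.05. Fold changes on this scale understate those of low units. edgeR 4.0.16 and DESeq2 1.42.0 ran on recovered reads, in R 4.3.3. The fits were also run on simulated libraries, all built on the mean reads of the IP libraries. That check does not cover the few gene reads and the high tRNA share of input. IP and input share cultures, so numbers pair the libraries: the difference between replicates in IP and that in input had r = 0.154 over 5129 genes and 0.284 over the 1547 with 100 input reads or more. A batch is not given in the sources used here. Coding coordinates of the 10 genes and *ags1* were identical in the table and RefSeq ASM294v3, from which sequences were read. Coding sequences were translated and aligned in pairs with Biopython 1.88 and by family with MAFFT.

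Values are given for all 10 genes. Of other lists, the highest and lowest gene in IP and any gene whose limma call differed from most of its list are named, with the 3 genes nearest to each mean profile, of which 1 is not reported here. Single units beside the genes, the coding segments of *mok13*, and genes named for an edgeR call were picked once their values were known. The genes and lists were chosen with earlier results of these data known. Alternatives changed the pseudocount, filter, scaling, test, block, coding rows, overlap and libraries.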

Additional observations from a re-analysis of the deposited data

How the results depend on the processing

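With 2 libraries in a group and few input reads (16 to 60 for *mok12* and *mok13*), the precision of IP/input ratios was limited by input. All 10 genes were called higher and 0 lower under either other pseudocount, the filter at 1 RPKM, coding rows and the replicate block. Leaving out 1 library gave 8 to 10 higher and 0 lower. The count of genes higher was 1 after centring, 2 under quantile normalization, 3 with edgeR, 2 with DESeq2 and 4 with edgeR and the replicate block, and the count lower was 2 after centring, 2 with edgeR, 2 with DESeq2 and 4 with edgeR and the block. Under these scalings the median protein-coding gene changed by −0.23 to 0.07, against 3.28 under the authors' normalization. Added after seeing the data, edgeR without 1 library gave 2 to 3 higher and 0 to 3 lower, and 4 lower with the block. Under it *bgs3*, not called, ran from −0.33 to 0.021 without 1 library.

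Directions turned against the authors' scaling as follows. After centring, *bgs2* changed by −0.35, *bgs4* by −0.024, *gas2* by −0.27, *mok11* by −0.75 and *mok14* by −0.58. Under quantile normalization *bgs2* changed by −0.0039, *mok11* by −0.52 and *mok14* by −0.50. With edgeR *bgs3*, *bgs4*, *mok11*, *mok14*, *gas1* and *gas2* changed by −0.12, −0.50, −0.45, −0.43, −0.45 and −0.78, with DESeq2 by −0.18, −0.56, −0.49, −0.47, −0.51 and −0.83, and with edgeR and the replicate block by −0.12, −0.50, −0.43, −0.40, −0.45 and −0.77. Of the 140 recomputed changes of single genes, 98 kept direction and call, 16 lost the call and 26 reversed.

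The contrast of vegetative and sporulation genes in IP (2.68) was 2.19 with a pseudocount of 10, 2.92 by means and 2.56 in the Bgs family alone, and 2.62 to 2.74 in single libraries. In input (2.55) it was 3.69 with a pseudocount of 0.1, 0.82 with 10 and 1.97 in the Bgs family, and 2.21 to 2.89 in single libraries. The difference of both (0.13) was −0.95 with 0.1, 1.37 with 10 and 0.59 in the Bgs family, and −0.15 to 0.42 in single pairs. Counts of genes with a noncoding antisense unit ran from 3 to 4, and that of genes above 1 RPKM was 10 throughout.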
